A study of Mus musculus with 4 samples.

Results

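Muscle that is going to ossify passes from an inflamed wound to cartilage within days, and the sections taken at day 7 and day 3 after injury stand on either side of that step. All spots of the day 7 section were compared with all spots of the day 3 section, which makes 2 of the 4 sections in the series and 6061 of its 10835 spots. Both sections were fresh-frozen tibial muscle of 6-8 week old C57BL/6 mice that carried the Nse-Bmp4 transgene, in which the neuron-specific enolase promoter drives Bmp4, and cardiotoxin injury had started the heterotopic ossification. The day 0 section, from uninjured muscle of the same genotype and age, and the day 1 section are used here only to give each gene's level before and early after injury. All 4 sections carried the transgene, so none shows the injury response without it, and in which cells the promoter was active was not settled here. The labels mention a pool of 3 tibial muscles, but the methods tie such a pool to the single-cell assay, so how many muscles a section came from was not settled here. With 1 section per day there is no replicate check. Day, animal, section and library cannot be told apart, no p-value is given, and every interval below covers counting error only.

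Endochondral ossification begins when mesenchymal cells condense and switch on Sox9, a transcription factor that with Sox5 and Sox6 turns on the genes of cartilage matrix. Chondrocytes then lay down type II, IX and XI collagen together with aggrecan, a large proteoglycan whose sulphated sugar chains hold water. Indian hedgehog and parathyroid hormone-related protein set the pace at which they enlarge, and enlarged (hypertrophic) chondrocytes make type X collagen before bone replaces the template. Bone morphogenetic proteins such as BMP4 drive the first steps, and ectopic BMP signalling in injured muscle is a known cause of heterotopic ossification.

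The arrays capture messenger RNA under printed spots, each of which can hold several cells or parts of cells, and a unique molecular identifier (UMI) marks each captured molecule. The day 3 section had 3029 spots and 56113066 UMIs, with a median of 16087 UMIs and 3760 genes in a spot. The day 7 section had 3032 spots and 41832640 UMIs, with a median of 12119.5 UMIs and 3205.5 genes. A gene's level is its share of all UMIs in the section, given as CPM (UMIs per 1000000), and in such a level fewer cells of a type and less RNA per cell cannot be told apart. Genes of adult and slow myofibres took 10.0% of all UMIs at day 3 and 17.7% at day 7, and mitochondrial transcripts took 11.7% of both. The muscle label was borne out by these genes, and 7 skin epithelium genes summed to 8.59 CPM at day 3 and 5.67 at day 7. Most of that was Krt10, at 8.39 and 5.02 CPM, while Krt5 had 0 UMIs at either day and Krt14 had 0 and 4. The summed level of 8 cartilage collagen genes went from 12.2 CPM at day 3 to 1562 CPM at day 7. That list was chosen with earlier results of these data known, so this describes the section and is no independent check. Of the spot barcodes, 2311 occurred in both sections, which is a property of the array's fixed barcode list.

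Of 32245 genes in the files, 10639 had a mean of at least 5 CPM over both sections and were compared. A gene is called higher or lower here when its CPM differed by at least 2-fold, a rule of size and not a test. By this rule 929 genes were higher at day 7 (8.73%) and 949 were lower (8.92%). The median log2 ratio over all compared genes was 0.01, and the range from the 5th to the 95th percentile was -1.34 to 1.33. The balance between higher and lower depends on the scaling: 49.5% of the called genes were higher with CPM, 44.4% with TMM factors (839 higher, 1049 lower), 43.2% with DESeq2 size factors (819 and 1079), and 62.4% when mitochondrial, haemoglobin and myofibre genes were left out of the totals (1231 and 742). These scalings move every log2 ratio by -0.06, -0.08 and 0.15. At the far ends the picture was lopsided, with 203 genes at least 4-fold higher and 174 lower, but 34 at least 16-fold higher and only 13 lower. A gene almost silent in one section passes the filter only through the other. Counts and medians of passing list members below are therefore descriptions, to be read beside the values over all genes.

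**Figure D1:**
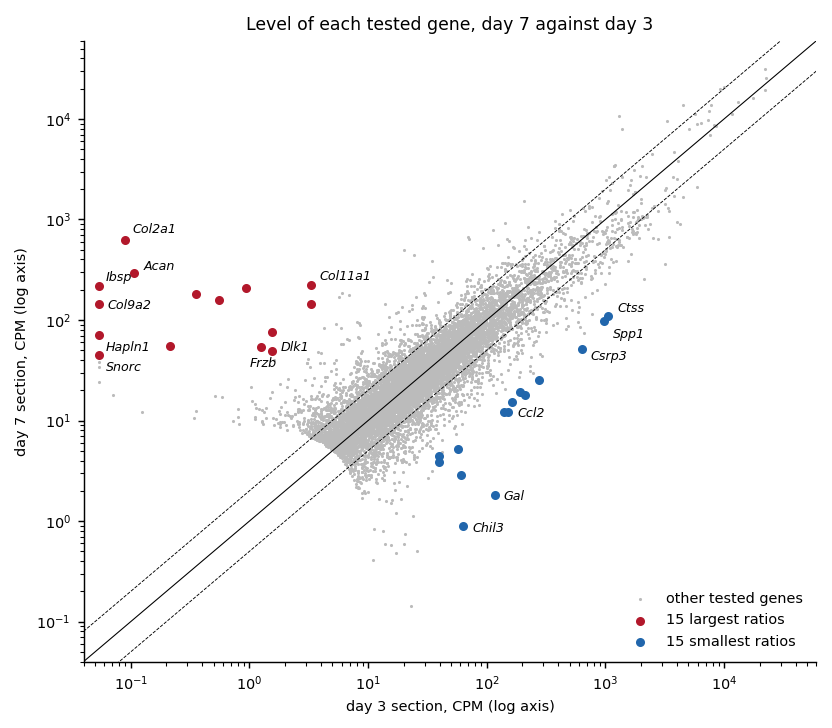
CPM of each compared gene in the day 3 section (x axis, log scale) and the day 7 section (y axis, log scale), one point per gene. The solid line marks equal levels and the dashed lines 2-fold, and values under 3 UMIs are drawn at that floor. The 15 genes with the largest ratios (red) are mostly cartilage matrix genes, among them Col2a1. The 15 with the smallest (blue) hold chemokine, monocyte and injury genes such as Ccl2, Chil3 and Csrp3.

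Promoter sequence for some of the genes that separated the days most is shown here so that the levels below can be read beside it. Each run is the 250 bases before the gene's RefSeq start in build GRCm38.p6, printed 5′ to 3′ on the gene's own strand. Col2a1, Sox9, Ccl2 and Snorc have no entry in the table used. Ibsp and Spp1 are bone matrix genes on the plus strand of chromosome 5, with 123638 bases between them, and are shown because they differed in opposite directions. Ibsp's window lies at chr5:104299037-104299286 and that of Spp1 at chr5:104434861-104435110. Capitals mark SOX-type letters (ACAAAG or ACAATG, on either strand) and TATAAA letters on either strand. Acan has a window too, which held none of these letters and is not printed.
Ibsp: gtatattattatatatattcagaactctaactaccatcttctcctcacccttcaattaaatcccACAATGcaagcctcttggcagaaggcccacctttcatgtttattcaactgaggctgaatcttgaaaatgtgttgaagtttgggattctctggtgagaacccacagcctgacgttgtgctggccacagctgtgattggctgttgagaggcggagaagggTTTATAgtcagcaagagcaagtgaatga
Spp1: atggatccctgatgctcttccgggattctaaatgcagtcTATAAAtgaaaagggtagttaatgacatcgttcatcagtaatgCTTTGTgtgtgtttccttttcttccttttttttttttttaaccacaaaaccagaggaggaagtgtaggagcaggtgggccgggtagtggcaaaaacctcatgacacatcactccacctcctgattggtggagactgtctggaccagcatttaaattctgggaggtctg
In the Ibsp window the capital TTTATA begins 28 bases before the start and the ACAATG 186 bases before it. In the Spp1 window the SOX-type CTTTGT begins 168 bases before the start and the TATAAA 211 bases before it. Ube2c (chr2:164769679-164769928, plus strand) and Cdk1 (chr10:69352913-69353162, minus strand) stand for the mitosis genes, as the list members with the highest day 3 CPM that have a window. Capitals mark CCAAT letters and the cell-cycle homology letters TTTGAA, each on either strand.
Ube2c: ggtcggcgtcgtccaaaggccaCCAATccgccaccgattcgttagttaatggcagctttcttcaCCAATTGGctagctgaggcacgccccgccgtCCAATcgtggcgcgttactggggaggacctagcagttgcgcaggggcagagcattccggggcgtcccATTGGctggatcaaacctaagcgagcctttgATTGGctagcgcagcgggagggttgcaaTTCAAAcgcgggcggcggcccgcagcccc
Cdk1: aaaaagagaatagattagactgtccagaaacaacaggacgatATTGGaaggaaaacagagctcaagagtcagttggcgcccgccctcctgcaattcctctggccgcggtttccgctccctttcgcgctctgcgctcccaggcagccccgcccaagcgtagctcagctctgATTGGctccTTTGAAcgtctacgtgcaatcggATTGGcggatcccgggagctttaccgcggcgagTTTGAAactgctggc
The TTTGAA letters of Cdk1 begin 71 and 15 bases before its start and those of Ube2c, on the other strand, 29 bases before. A capital run of Ube2c that reads alike on both strands holds overlapping CCAAT matches.
For the macrophage genes, the same rule gave Lyz2 and C1qb. The Lyz2 window held no PU.1-type letters GAGGAA on either strand and is not printed. C1qb (chr4:136886201-136886450, minus strand), a subunit of complement C1q made by macrophages, is shown with capitals on those letters.
C1qb: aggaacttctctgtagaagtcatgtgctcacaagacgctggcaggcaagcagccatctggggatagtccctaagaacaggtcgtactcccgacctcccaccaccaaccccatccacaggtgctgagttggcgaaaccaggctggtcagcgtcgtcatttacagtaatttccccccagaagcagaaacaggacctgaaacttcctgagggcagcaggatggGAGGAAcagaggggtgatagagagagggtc

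CCAAT letters stood in the windows of 17 of 20 mitosis genes (85.0%) and 10 of 17 DNA replication genes (58.8%), against 36.2% of the 8482 compared genes that have a window. TTTGAA letters stood in 7 of 20 mitosis genes (35.0%) and 10.3% of compared genes, but also in 4 of 14 macrophage (28.6%) and 4 of 17 monocyte and inflammatory genes (23.5%). CCAAT letters were likewise found in 11 of 20 osteoblast genes (55.0%). GAGGAA letters were found in 8 of 14 macrophage genes (57.1%) and 8 of 17 monocyte and inflammatory genes (47.1%), against 22.4% of compared genes. The SOX-type letters were found in 1 of 6 cartilage collagen windows and 3 of 21 cartilage matrix windows (14.3%), against 16.2% of compared genes and 25.4% of all promoters. They were more frequent in windows of monocyte and inflammatory genes (6 of 17, 35.3%) and osteoblast genes (6 of 20, 30.0%). The groups hold every list member with a window, also those under the filter, whereas the compared genes all passed it. No group's letters were tested against another's, and these groups are small. A match describes letters in a window, and a window without them says nothing about the factor.

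Cartilage collagens had the highest median log2 ratio of all gene lists used here. All 8 passed the filter and all 8 were higher at day 7, with a median log2 ratio of 7.12. Each of the 8 was under 5 CPM at day 3 and passed only through day 7. The count, the median and its rank are therefore descriptions. Col2a1, the main fibrillar collagen of cartilage (ENSMUSG00000022483, chr15:97975602-98004724 in GRCm38.p6), stood at 0.296, 0.119, 0.0891 and 618 CPM at day 0, 1, 3 and 7. The day 7 section was the only one with more than a trace. Its 5 UMIs at day 3 became 25868 at day 7, a ratio of 6939.7 (95% counting interval 2973 to 21375). Type IX collagen decorates type II fibrils, and its 3 chains were measured apart. Col9a1 stood at 0.16, 1.01, 0.356 and 181 CPM over the 4 days, 507-fold higher at day 7 than at day 3. Col9a3 stood at 0.501, 0.298, 0.552 and 158 CPM and was 287-fold higher. Col9a2 stood at 0.775, 0, 0.0535 and 146 CPM, and with 3 UMIs at day 3 its ratio was 2723 with an interval of 931 to 13206. By day 7 the 3 chains lay between 146 and 181 CPM, although they had started from unequal traces.

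Type XI collagen, which sets the width of type II fibrils, was present at low levels earlier. Col11a1 stood at 1.6, 1.85, 3.3 and 221 CPM and was 67.1-fold higher at day 7 than at day 3 (interval 58 to 78.1). Col11a2 stood at 4.13, 2.15, 3.31 and 144 CPM and was 43.4-fold higher. Col27a1, a fibrillar collagen of cartilage and other tissues, went from 4.22 to 83 CPM. Col10a1, the collagen of hypertrophic chondrocytes, stood at 0, 0, 0.339 and 10.6 CPM, a 31.3-fold ratio at a level far under that of Col2a1.

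Among cartilage proteoglycans and other matrix proteins, 10 of 16 members that passed the filter were higher at day 7 and none was lower, out of 26 in the list. The median log2 ratio of those that passed was 3.37. Acan, which encodes aggrecan (chr7:79053226-79115099), stood at 0.0456, 0.238, 0.107 and 292 CPM at day 0, 1, 3 and 7. Its 6 UMIs at day 3 and 12224 at day 7 gave a ratio of 2733 (interval 1255 to 7448). Hapln1, the link protein that holds aggrecan to hyaluronan, had no UMI at day 3 and 71.3 CPM at day 7, at least 1334-fold higher against a floor of 3 UMIs. Snorc, a cartilage membrane proteoglycan, had no UMI in the 3 earlier sections and 45.1 CPM at day 7, at least 844-fold higher than at day 3. Cnmd, which encodes the cartilage protein chondromodulin, likewise went from no UMI at day 3 to 1000 UMIs. These genes were all but silent in the inflamed muscle.

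The matrilins are adaptor proteins that link collagen fibrils to other matrix. Matn4 stood at 0.957, 0.358, 0.945 and 206 CPM and was 218-fold higher at day 7 than at day 3. Matn3 stood at 0.0456, 0.298, 0.214 and 54.8 CPM and was 256-fold higher. Matn1 was under the filter, at 0.0891 and 3.32 CPM. Comp, a cartilage and tendon matrix protein, went from 34.4 to 383 CPM, from a higher start than the matrilins given here. The list was not uniform: Cilp, an intermediate-layer protein also made by fibroblasts, was at 237 CPM at day 3 and 185 at day 7, and Chad was at 9.48 and 8.7 CPM.

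**Figure D2:**
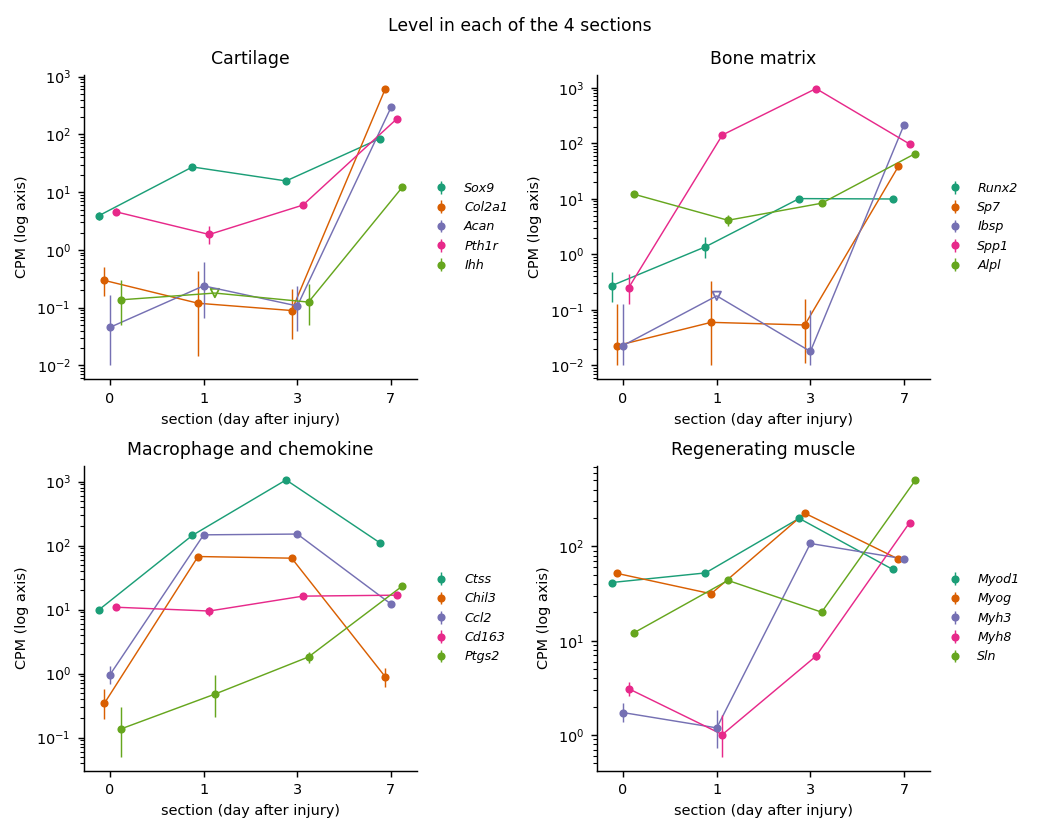
CPM (log scale) of 20 genes in the day 0, 1, 3 and 7 sections, 1 section per day, with bars for 95% Poisson counting intervals and open triangles for 0 UMIs drawn at the 3-UMI floor. Col2a1, Acan and Ihh leave the trace level only at day 7, Spp1 and Ctss peak at day 3, and Myh8 and Sln are highest at day 7 while Myod1 and Myog peak at day 3.

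The regulators differed far less than the matrix genes. Of 14 cartilage transcription factors, 8 passed the filter, of which 2 were higher, 1 was lower and the median log2 ratio was 0.81. Sox9, the factor that specifies chondrocytes, stood at 3.9, 27.3, 15.6 and 84.5 CPM at day 0, 1, 3 and 7. It was thus already above its day 0 level at day 1 and day 3, and 5.4-fold higher at day 7 than at day 3 (interval 5.02 to 5.83). Shox2, a homeobox gene of limb cartilage, went from 1.98 to 11.4 CPM. Sox6 went from 25.5 to 40.9 CPM, under 2-fold, and Sox5 was under the filter at 0.481 and 2.92 CPM. Runx3, which acts in late chondrocytes and also in leukocytes, was the lower member, at 13.6 CPM at day 3 and 3.35 at day 7.

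Aggrecan needs sulphated sugar chains, and the enzymes that make them were higher in part. Of 21 sulphation and glycosaminoglycan genes, 19 passed the filter, 8 were higher and 1 was lower, with a median log2 ratio of 0.67. Slc26a2, the sulphate transporter that is mutated in diastrophic dysplasia, went from 11.7 to 52.2 CPM. Xylt1, which starts the sugar chain, went from 7.98 to 37.1 CPM. Papss2, which makes the sulphate donor, and Chst11, which adds sulphate to chondroitin, reached 29.5 and 25.9 CPM from 10.6 and 8.25. Galns, a lysosomal enzyme that removes sulphate, was the lower member, at 19.9 and 9.73 CPM. The other 10 that passed were within 2-fold.

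Hedgehog and PTHrP signalling genes differed widely in level. Of 16, 9 passed the filter, 3 were higher and none was lower. Ihh, the ligand made by chondrocytes about to enlarge, stood at 0.137, 0, 0.125 and 12.1 CPM at day 0, 1, 3 and 7. Pth1r, the receptor through which PTHrP holds chondrocytes back from hypertrophy, stood at 4.58, 1.85, 5.97 and 184 CPM. Pth1r was therefore 30.9-fold higher at day 7 than at day 3 (interval 27.7 to 34.5), and Ihh 97.2-fold. Ptch1, the hedgehog receptor and a target of the pathway, went from 4.31 to 11.2 CPM. Gli1, another target, and Pthlh, which encodes PTHrP, were under the filter, at 0.873 and 6.19 CPM and at 1.87 and 5.16 CPM.

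Growth plate FGF and other signals gave 6 higher and no lower genes among 15 that passed, of 24 in the list. Fgfr3, the receptor that restrains chondrocyte division, went from 3.97 to 47.5 CPM, and Fgfr2 from 0.588 to 17.1. Frzb, a secreted Wnt inhibitor first found in cartilage, stood at 27.2, 0.954, 1.25 and 53.9 CPM, so that it was 43.2-fold higher at day 7 than at day 3 and within the same order of magnitude as at day 0. Wnt5a went from 2.62 to 13.1 CPM.

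Most BMP genes lay within 2-fold between the days. Of 21 ligands, receptors, inhibitors and targets, 15 passed, 3 were higher and none was lower, with a median log2 ratio of 0.33. Bmp4 itself stood at 9.48, 2.68, 4.99 and 9.49 CPM at day 0, 1, 3 and 7, and whether these UMIs include transgene RNA was not settled here. Bmp1, a protease that trims procollagen and is no BMP ligand, went from 84.3 to 242 CPM. Bambi, a decoy receptor, went from 4.62 to 17.8 CPM. Nog, the secreted inhibitor noggin, which was counted in the growth plate list, was at 18.7 and 10.8. The Id genes, direct targets of BMP signalling, split: Id4 was higher (1.87 and 9.66 CPM), whereas Id1 was at 89.8 and 60.0 CPM, Id2 at 67.8 and 37.4, and Id3 at 177 and 186.

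Bone matrix genes were higher beside the cartilage genes. Of 29 osteoblast genes, 18 passed, 11 were higher and 1 was lower, with a median log2 ratio of 1.56. Pth1r, given above with the hedgehog genes, is among the 11. Ibsp, bone sialoprotein, which binds mineral, stood at 0.0228, 0, 0.0178 and 217 CPM over the 4 days. Its single UMI at day 3 became 9061 at day 7, a ratio of 12154 with an interval of 2181 to 480116. Sp7, the osteoblast factor osterix, stood at 0.0228, 0.0596, 0.0535 and 38.6 CPM. Panx3, a channel of osteoblasts and hypertrophic chondrocytes that is counted in the hypertrophy list below, went from no UMI at day 3 to 1421. Alpl, the alkaline phosphatase that frees phosphate for mineral, stood at 12.1, 4.11, 8.34 and 65.5 CPM and was 7.85-fold higher at day 7 than at day 3. Runx2, the factor upstream of Sp7, stood apart at 0.274, 1.37, 10.1 and 9.94 CPM, level between the days to within its counting interval (ratio 0.984, 0.865 to 1.12).

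The genes of mature bone were at traces. Bglap, osteocalcin, had 6 UMIs at day 3 and 2 at day 7. Dmp1, of osteocytes, had 29 and 18 UMIs, and Phospho1, a phosphatase of matrix vesicles, had 12 and 4. Mmp13, the collagenase of hypertrophic cartilage, was above a trace at both days, with 4.62 and 4.9 CPM. Of 24 hypertrophy and mineralisation genes, 17 passed, 8 were higher and 1 was lower, the same lower member as in the osteoblast list. The tallies overlap: of the 8, Ibsp and Alpl are in the osteoblast list too, and Col10a1, Ihh and Ctsk are counted in other lists here. Smpd3, a sphingomyelinase needed for skeletal growth, stood at 3.51, 1.25, 1.55 and 76.7 CPM at day 0, 1, 3 and 7 and was 49.5-fold higher than at day 3.

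The lower member was Spp1, osteopontin, a matrix phosphoprotein made by bone cells and by macrophages. Spp1 stood at 0.251, 141, 969 and 96.9 CPM at day 0, 1, 3 and 7 and was 9.99-fold lower at day 7 than at day 3 (interval 9.68 to 10.3), the opposite direction to Ibsp. Mepe, which lies between the 2 genes, had 0 and 4 UMIs. At day 7 the Spp1 left was very local. Over 50% of its UMIs lay in 14 spots, against 181 spots at day 3, and those 14 spots held 1.70% of all day 7 UMIs. The 14 were chosen by Spp1 count (40 in the lowest inside, 39 in the highest outside), so its own level in them is a description. They held a median of 49101 UMIs, far above the section's, and a spot of high total has more of every gene. In CPM, which takes the total into account, they had 1473 CPM of Gpnmb against 51.8 outside, and 459 CPM of Acp5 against 24.1. Mmp12, macrophage elastase, was at 315 CPM inside and 3.4 outside. The same spots had 81.5 CPM of Col2a1 against 628 outside, and more embryonic and neonatal myosin (Myh3 663 against 63.5 CPM, Myh8 1638 against 154). These genes were picked after their values were seen.

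Osteoclast genes did not move together. Of 15, 9 passed, 3 were higher and 3 were lower, with a median log2 ratio of 0.04 that turns to -0.020 with TMM factors and -0.039 with DESeq2 size factors. Ctsk, the collagen-degrading protease of osteoclasts that fibroblasts also make, went from 30.3 to 133 CPM. Acp5, tartrate-resistant acid phosphatase, was at 30.7 and 31.6 CPM, and Csf1r, the receptor of the macrophage lineage, was lower, at 235 and 82.9.

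**Figure D3:**
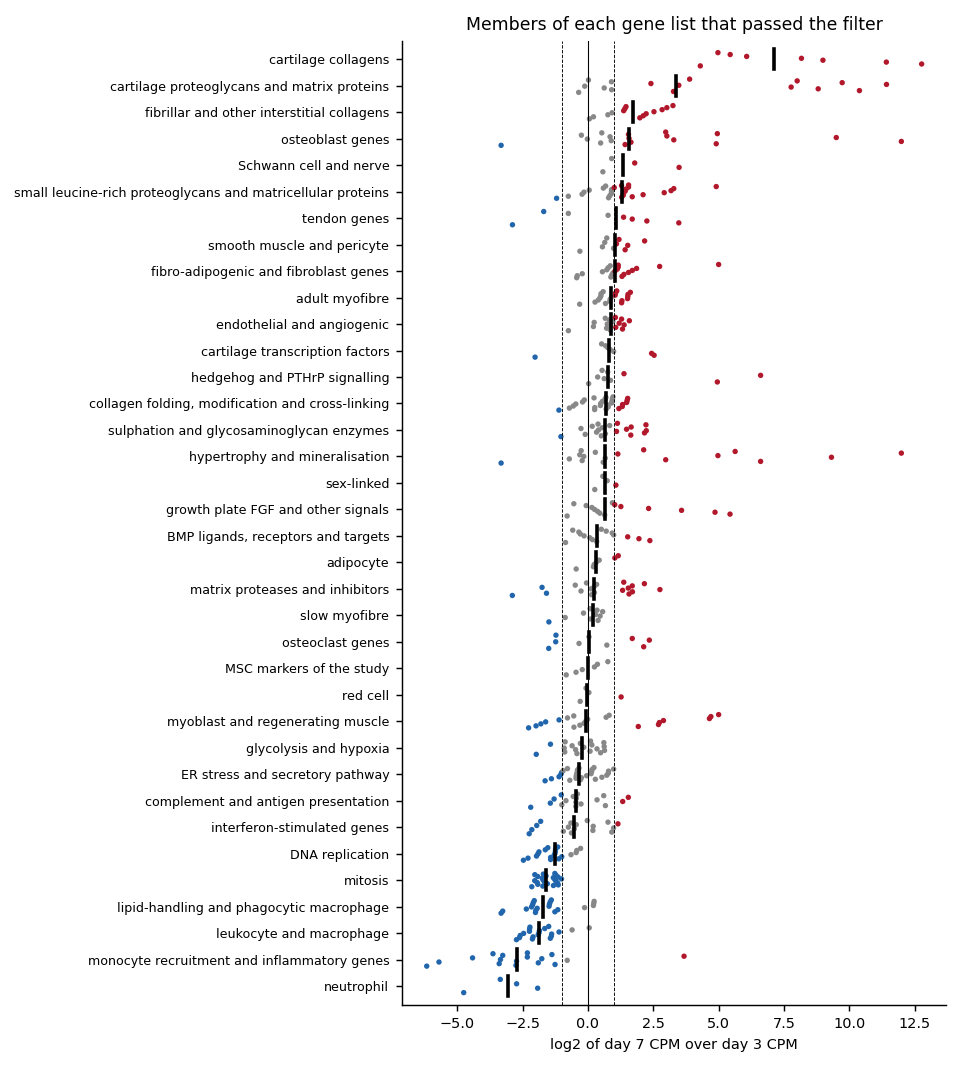
Log2 ratio of day 7 to day 3 (x axis) for the members of each gene list that passed the filter (y axis, lists with at least 4 such members), 1 point per gene. Genes with under 3 UMIs at day 3 are drawn at their bound against 3 UMIs. Black bars are list medians, and red and blue points are at least 2-fold higher or lower. Cartilage collagens lie furthest right with a median of 7.12, and the mitosis and macrophage lists lie to the left with no member at least 2-fold higher.

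Interstitial matrix gave the largest gains in absolute level outside muscle genes. Of 15 fibrillar and other interstitial collagens, 14 passed, 10 were higher and none was lower, with a median log2 ratio of 1.72. Col1a1, the main collagen of bone, tendon and scar, stood at 2253, 214, 1309 and 10599.9 CPM and was 8.1-fold higher at day 7 than at day 3. Col1a2 went from 1384 to 7966 CPM. Col12a1, a fibril-associated collagen of tendon and periosteum, went from 69.9 to 665 CPM, a 9.52-fold ratio. Col3a1, the collagen of loose and early scar tissue, changed least of the 3 main fibrillar genes named here, from 2015 to 3417 CPM.

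Small leucine-rich proteoglycans and matricellular proteins were higher in 15 of 27 members that passed and lower in 1. Lum, lumican, which spaces collagen fibrils, went from 71.1 to 643 CPM, and Tnn, tenascin-N of periosteum and forming bone, from 5.68 to 170.4. Thbs1, thrombospondin-1, which is released early in wounds, was the lower member at 216 and 94.3 CPM. Eln, elastin, went from 35.2 to 266 CPM. Fibroblast genes were higher in 11 of 21 and lower in none. The 6 mesenchymal stem cell markers named by the study were all within 2-fold, with a median log2 ratio of 0.02 that becomes -0.043 with TMM factors and -0.062 with DESeq2 size factors. Pdgfra among them was at 44.6 and 38.4 CPM, and it is a member of both lists.

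Collagen is folded in the endoplasmic reticulum (ER), while some enzymes that process and cross-link it act outside the cell. The lists for these collagen steps and for general secretory genes had medians of opposite sign. Of 30 genes of collagen folding, modification and cross-linking, 27 passed, 6 were higher and 1 was lower, with a median log2 ratio of 0.69. Plod2, a lysyl hydroxylase, went from 30.1 to 83.9 CPM, and Fkbp10, a collagen chaperone, from 69.9 to 159. Lox, the cross-linking oxidase, was the lower member at 247 and 115 CPM. General secretory and ER stress genes had no higher and 5 lower members of 27, with a median log2 ratio of -0.34. Hspa5, the main ER chaperone, was at 527 and 307 CPM, and Sec61b, of the translocation channel, at 323 and 123.

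Tendon genes split. Of 11, 8 passed, 4 were higher and 2 were lower. Fmod, fibromodulin, went from 101 to 326 CPM and Tnmd, a marker of mature tendon cells, from 10.7 to 27.6. Scx, the transcription factor of tendon progenitors, was lower, at 79.8 and 24.7 CPM, and so was Prg4, lubricin, at 232 and 31.4. Matrix proteases and inhibitors were higher in 8 and lower in 3 of 19. Mmp2, a gelatinase of fibroblasts, went from 124 to 553 CPM, while Timp1, an inhibitor induced by inflammation, was at 318 and 94.2.

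Macrophage genes were lower almost throughout. Of 20 leukocyte and macrophage genes, all passed, 18 were lower at day 7 and none was higher, with a median log2 ratio of -1.89 and a summed level of 9586 CPM at day 3 and 2396 at day 7. Ctss, a lysosomal protease of macrophages, stood at 9.85, 144, 1060.4 and 111 CPM at day 0, 1, 3 and 7 and was 9.58-fold lower at day 7 than at day 3 (interval 9.3 to 9.87). Tyrobp, a signalling adaptor of myeloid cells, was at 771 and 116 CPM. The 5 largest losses in CPM of all non-mitochondrial genes held Lyz2, lysozyme of myeloid cells, from 4222 to 907 CPM, and Apoe, a lipid carrier that macrophages make, from 5886 to 2120.5. The other 3 were Tmsb4x, an actin-binding peptide (4039 to 942), Rpl41, a ribosomal protein (4478 to 1661), and Mt1, a metallothionein (3150.1 to 363). The members within 2-fold were Cd163, at 16.2 and 16.8 CPM, and Lyve1, at 18.4 and 12.1. Other genes known from resident macrophages were lower, among them Mrc1, a mannose receptor, at 189 and 87.9 CPM, and Folr2, a folate receptor, at 93.2 and 34.4. Of 20 genes of lipid-handling and phagocytic macrophages, 16 were lower and none was higher.

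Genes of monocyte recruitment and inflammation were lower still. Of 25, 17 passed, 15 were lower and 1 was higher, with a median log2 ratio of -2.73. Chil3, a chitinase-like protein of monocytes and activated macrophages, stood at 0.342, 67.4, 63.5 and 0.884 CPM at day 0, 1, 3 and 7, the lowest ratio of all named genes at 71.7-fold lower (interval 52 to 102). Ccl2, the chemokine that draws CCR2-bearing monocytes, stood at 0.957, 147, 151 and 12.2 CPM and was 12.4-fold lower. Ccl7, which shares that receptor and lies 8259 bases from Ccl2 on chromosome 11, stood at 0.182, 164, 162 and 15.4 CPM and was 10.5-fold lower. Ly6c2, a surface marker of inflammatory monocytes, stood at 0.433, 33.9, 61.1 and 2.87 CPM. All 4 were high at day 1 and day 3 and low at day 0 and day 7. Other monocyte genes among the 15 smallest ratios were Ccr1, a chemokine receptor (10.2-fold lower), and Ms4a4c and Ms4a6d, membrane proteins of myeloid cells (11-fold and 10.1-fold lower). Ccl8 was an exception among chemokines, at 252 and 145 CPM, under 2-fold.

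The higher member was Ptgs2, cyclooxygenase-2, the enzyme that starts prostaglandin synthesis. Ptgs2 stood at 0.137, 0.477, 1.82 and 23.2 CPM at day 0, 1, 3 and 7, 12.8-fold higher at day 7 than at day 3, and 38.7% of its day 7 UMIs lay in the spots richest in Col2a1 (the 152 described further on). Neutrophil genes were scarce at both days, with 4 of 12 passing and all of those lower. Interferon-stimulated genes were lower in 4 and higher in 1 of 17. Complement and antigen presentation genes split, with 2 higher (C1ra 30.8 and 89.7 CPM, C1s1 48.1 and 121 CPM, both proteases of the classical pathway) and 4 lower of 17. T, NK, B and dendritic cell genes could hardly be read, since 3 of 26 passed the filter.

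Cell cycle genes were lower in nearly every case. All 23 mitosis genes that passed were lower, with a median log2 ratio of -1.60, and of 20 DNA replication genes 16 were lower, with a median of -1.28. No member of either list was higher. Ube2c, which marks mitotic proteins for destruction and whose promoter is printed above, was at 83.5 CPM at day 3 and 18.8 at day 7. Cdk1, the kinase that drives mitosis, was at 57.5 and 26.1 CPM, and Mki67, the proliferation marker, at 37.5 and 16.1. Rrm2, which makes DNA precursors, was at 77.6 and 14 CPM.

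Muscle genes did not move as one. Adult myofibre genes were higher in 9 of 20 and lower in none, with a median log2 ratio of 0.87. With TMM or DESeq2 size factors 7 were higher, since Mybpc2 and Myh4 then lay under 2-fold (Myh4 at log2 ratios of 0.996 and 0.977). Besides Col1a1, the 5 largest gains in CPM were muscle genes. Myh4, the fastest myosin, went from 9963 to 20694 CPM, and Ckm, the muscle creatine kinase, from 9288 to 19928. Atp2a1, the calcium pump, went from 4510.0 to 13883 CPM, and Acta1, skeletal actin, from 22224 to 31408. As myofibre genes make up 10.0% of the day 3 and 17.7% of the day 7 UMIs, they lower the CPM of all other genes at day 7, and how much intact muscle each section cut through was not tested. Slow myofibre genes were within 2-fold except for Myoz2, which was lower. The 22 myoblast and regenerating muscle genes gave 7 higher and 5 lower of 21 that passed, and their median log2 ratio of -0.08 turns to 0.068 when mitochondrial, haemoglobin and myofibre genes are left out of the totals.

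The members of that list did not share a direction. Myod1, the myoblast determination factor, stood at 41.4, 52.3, 198 and 56.9 CPM at day 0, 1, 3 and 7 and was 3.48-fold lower at day 7 than at day 3. Myog, its successor in differentiation, stood at 51.6, 31.5, 225 and 73.3 CPM and was 3.07-fold lower. Mymx, needed for myoblast fusion, was at 43.9 and 9.11 CPM. Myf5, another myoblast factor, was within 2-fold at 6.81 and 6.43 CPM, and Chrng, a fetal subunit of the acetylcholine receptor, was lower at 24.8 and 11.5. The higher members were Myh8, Sln, Actc1, Igf2, H19, Mest and Dlk1. Myh8, neonatal myosin, stood at 3.1, 1.01, 6.88 and 179 CPM and was 26-fold higher at day 7 than at day 3 (interval 23.5 to 28.9). Sln, sarcolipin, a regulator of the calcium pump, stood at 12.2, 43.6, 20.1 and 502 CPM and was 25-fold higher. Myh3, embryonic myosin, which precedes Myh8 in development and lies 174832 bases from it on chromosome 11, stood at 1.73, 1.19, 107 and 73.7 CPM and was lower by less than 2-fold. Actc1, the cardiac actin of developing muscle, went from 143 to 926 CPM, while Myl4 and Tnnt2, also of developing muscle, were within 2-fold at 222 and 359.6 and at 64.7 and 64.2 CPM.

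Where the cartilage RNA lay was described with the 152 day 7 spots richest in Col2a1, 5% of the section. They were chosen by Col2a1 UMIs (35 in the lowest inside and the highest outside), so Col2a1 in them is no finding, and 2219 spots had at least 1 Col2a1 UMI. The 152 held 4.89% of all day 7 UMIs, with a median of 10173.5 UMIs against 12258 in the other spots. They held 50.6% of Hapln1, 48.3% of Ihh, 42.6% of Pth1r and 58.1% of Col10a1 UMIs. Bone genes were there too, with 42.3% of Ibsp and 30.8% of Sp7 UMIs. Runx2, level between the days over the section, had 26% of its day 7 UMIs there, a share well above that of all UMIs.

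Not every gene that was higher at day 7 shared this place. Col1a1 had 17.8% of its UMIs in those spots, and Myh8 and Dlk1 had 1.24% and 2.17%. Mitosis genes, lower over the section, had 16.8% of their day 7 UMIs there, against the 4.89% of all UMIs, and without these spots their median log2 ratio was -1.78 in place of -1.60. Cartilage collagens stayed high without them, with a median log2 ratio of 6.32 and Col2a1 at 302 CPM in the other spots, against 0.0891 CPM at day 3.

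**Figure D4:**
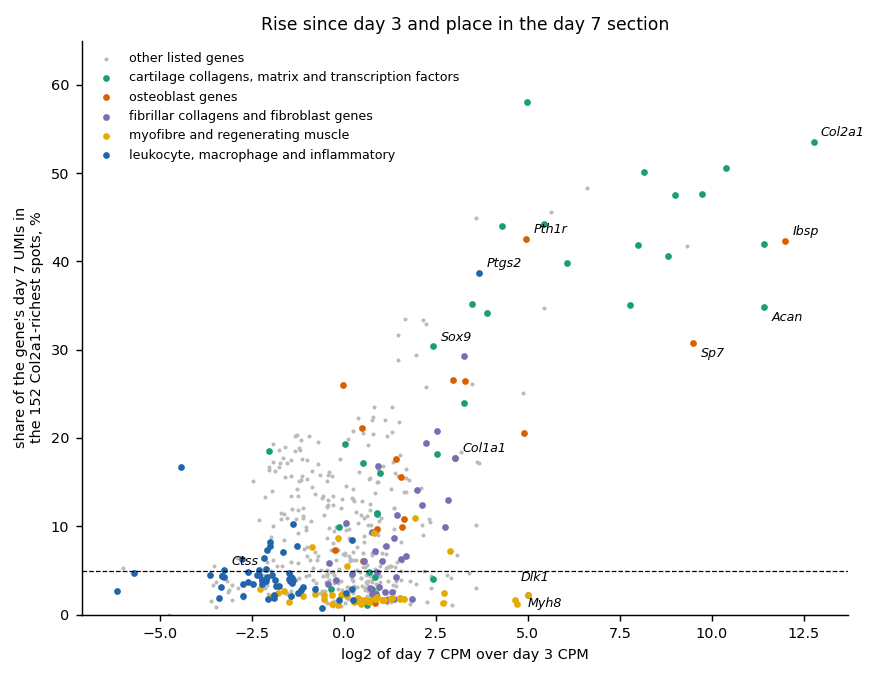
Log2 ratio of day 7 to day 3 (x axis) against the percent of a gene's day 7 UMIs that lay in the 152 Col2a1-richest spots (y axis), 1 point per listed gene that passed the filter, coloured by gene list, with a dashed line at the 4.89% these spots hold of all UMIs. Genes with under 3 UMIs at day 3 are drawn at their bound against 3 UMIs. Pth1r (42.6%), Acan (34.9%) and Ibsp (42.3%) lie at the upper right, and Myh8 and Dlk1 lie to the right but under the line.

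The spread over the sections was read from spots thinned to 2000 UMIs each, which leaves out 9 spots at day 3 and 84 at day 7 that were shallower. The expected share of spots that keep a Col2a1 UMI was 0.0155% of 3020 spots at day 3 and 37.8% of 2948 spots at day 7 (95% Clopper-Pearson interval 36 to 39.5). Without thinning the shares were 0.165% and 73.2%. The bone gene Ibsp reached 21.6% of thinned spots and Sp7 6.74%, from 0.0076% and 0.010% (without thinning 51.9% and 24.9% at day 7, and 0.033% and 0.099% at day 3). Pth1r went from 1.26% to 20.2% (9.64% to 49.4% without thinning). How far RNA spreads sideways between spots was not tested, so a spot with a UMI is not shown to express the gene. Spp1 went the other way, from 45.9% to 7.66% (85.5% to 29.6%), and Myod1 from 28.9% to 9.62% (83.1% to 41%). Runx2 was at 1.56% and 1.76% (14.8% and 10.8%), close to each other as its levels were.

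**Figure D5:**
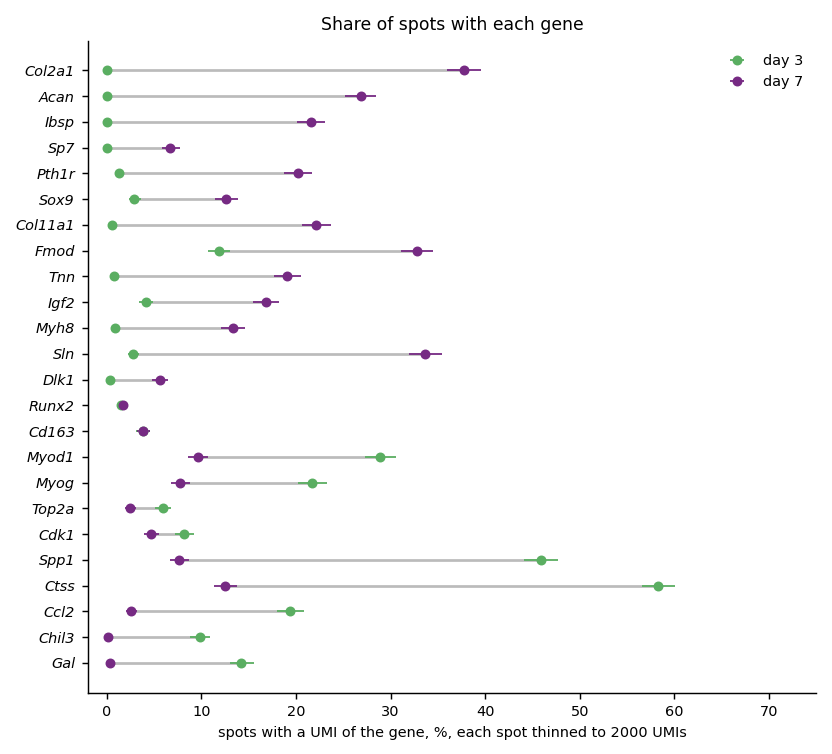
Percent of spots (x axis) with at least 1 UMI of each of 24 genes (y axis) after every spot was thinned to 2000 UMIs, in the day 3 (green) and day 7 (purple) sections, with 95% Clopper-Pearson intervals. Col2a1 moves from near 0 to 37.8%, Spp1 from 45.9% to 7.66%, and Cd163 and Runx2 overlap between the days.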

How the data were processed

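Spatial gene expression was measured on 1 fresh-frozen section of tibial muscle per day. The deposited values are UMI counts per gene and spot, which the authors made from the reads with Space Ranger and aligned to a mouse genome named as mm10 in the submitters' processing notes. The matrix header names Space Ranger 1.2.0, whereas the labels describe Cell Ranger 5.0.0 with STAR and down-sampling for an aggregate, and the methods name another version, so which settings made the files was not settled. Per the methods, spots under tissue were picked from the images.

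Counts were summed over all spots of a section and scaled to CPM (pandas 2.3.3, NumPy 2.4.6 and SciPy 1.17.1 under Python 3.11.15, plots with matplotlib 3.10.9). Levels carry exact 95% Poisson intervals and ratios exact conditional binomial intervals, which cover counting error only. Genes were compared from a mean of 5 CPM. A gene with 0 UMIs in one section is given as a bound against 3 UMIs. For calls, ranks, list medians and plotted log2 ratios, any count under 3 UMIs was raised to 3. Ibsp, with 1 UMI at day 3, therefore ranked behind Col2a1 despite its larger printed ratio. With 1 section per day, no test was fitted: edgeR 4.0.16 (TMM) and DESeq2 1.42.0 in R 4.3.3 gave scaling factors only. Spot shares were computed as the exact expectation after thinning each spot to 2000 UMIs.

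Named genes are the 15 largest and 15 smallest ratios among non-mitochondrial genes with a mean of at least 20 CPM, the 5 largest gains and losses in CPM, and members of the gene lists. The comparison, the members and the lists were chosen with earlier results of these data known. Of 32245 gene symbols, 26296 were matched to RefSeq (GRCm38.p6), and promoter windows and gene positions come from that table. The steps were tested on simulated data. Alternatives were the scaling, the filter, minimum UMIs per spot, a pseudocount, thinning of day 3 and leaving out the Col2a1-richest spots.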

Additional observations from a re-analysis of the deposited data

How the results depend on the processing

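With no test, a value counts as changed here when it moved by more than its counting error, and a count of genes when it moved by over 1.5 times. The 929 higher genes became 1594 with a mean of at least 1 CPM and 2957 with no filter on low genes, and the 949 lower genes became 1975 with no filter. They were 938 and 953 with day 3 thinned to the day 7 total, 933 and 953 with spots of at least 3000 UMIs, and 897 and 1020 without the Col2a1-richest day 7 spots, an alternative chosen after seeing the data. With TMM factors, DESeq2 size factors and totals without mitochondrial, haemoglobin and myofibre genes, the median log2 ratio of macrophage genes (main value -1.89) was -1.95, -1.96 and -1.74, and that of adult myofibre genes (0.87) was 0.82, 0.80 and 1.02. Without the Col2a1-richest spots the medians were 6.32 for cartilage collagens (7.12), 0.92 for adult myofibre and -1.78 for mitosis genes (-1.60), which were at -1.45 with the reduced totals. Signs turned only in lists with medians near 0: osteoclast genes (0.04) at -0.020 with TMM and -0.039 with DESeq2, the study's MSC markers (0.02) at -0.043, -0.062 and, without the Col2a1-richest spots, -0.043, myoblast genes (-0.08) at 0.068 with the reduced totals, and red cell genes (-0.02) at 0.13 with those totals and 0.037 without the Col2a1-richest spots. Over all recomputed values, 298 stayed within these limits, 162 moved without turning sign and 8, those just given, turned. None of the 40 named genes changed direction under another scaling, and none could. The scalings move log2 ratios by at most 0.15, and the log2 ratio nearest 0 among these genes was 0.499 (Acta1). The cause of these shifts was not tested beyond the construction of each setting. No paired analysis was possible because there was 1 section per day. Genes with a few UMIs in one section, such as Ibsp and Col9a2 at day 3, have ratios that are precise only to their wide intervals.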

Other observations

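Vessel and contractile cell genes were higher at day 7 in part. Of 17 endothelial and angiogenic genes that passed the filter, 7 were higher and none was lower, with a median log2 ratio of 0.87. Aplnr, the apelin receptor of growing vessels, went from 14.6 to 43.8 CPM. Cldn5, a tight junction protein of vessels, was at 62.9 and 37.5 CPM, so the list did not move as one. Of 10 smooth muscle and pericyte genes, 5 were higher and none was lower. S100b, a Schwann cell gene that chondrocytes express too, went from 1.5 to 16.8 CPM and had 26.1% of its day 7 UMIs in the Col2a1-richest spots. Red cell genes gave 1 higher of 4 and adipocyte genes 2 of 7, where 8.73% of all compared genes were higher. Glycolysis and hypoxia genes gave none higher and 2 lower of 18, near the 8.92% lower over all compared genes. Eno1 among them was at 184 and 46.9 CPM.

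A further 3 gene groups were put together after their values were seen, and nothing was tested on them. Of 13 imprinted genes, 10 were higher at day 7 and none was lower, with a median log2 ratio of 2.73. Dlk1, an inhibitor of adipocyte differentiation that is also on in regenerating muscle, stood at 15.1, 2.38, 1.55 and 49.5 CPM at day 0, 1, 3 and 7, and its neighbour Meg3, a non-coding RNA that lies 77659 bases away on chromosome 12, went from 19.5 to 136 CPM. H19 went from 206 to 1521 CPM and its neighbour Igf2, an insulin-like growth factor, from 25.4 to 169. Of 11 muscle stress genes, 10 were lower and none was higher, with a median of -3.04: Csrp3, a stretch-responsive protein of the sarcomere, stood at 46.3, 1199.7, 633 and 51.8 CPM, Ankrd2, another stretch-responsive muscle gene, was 11-fold lower, and Cryab, a small heat shock protein, was at 2760.2 and 644 CPM. Of 15 circadian clock genes, 13 passed, 8 were higher and 1 was lower. Dbp, a clock output factor, stood at 9.05, 63.7, 8.0 and 96.6 CPM, and Arntl, which peaks in the opposite phase, at 27.4, 3.7, 21.2 and 9.94 CPM. The hour at which each muscle was taken is not given in the sources used here, so hour and day cannot be told apart for these genes.

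Gal, the neuropeptide galanin, stood at 1.34, 14.5, 117 and 1.82 CPM at day 0, 1, 3 and 7 and was 64.2-fold lower at day 7 than at day 3, the second smallest ratio after Chil3 among the named genes. Angptl4, an inhibitor of lipoprotein lipase, was 11.6-fold lower, and the less known genes Gm13889 and AB124611 were 11.8-fold and 9.01-fold lower. Injured nerves are known to make galanin, but which cells its UMIs came from here was not tested. At day 3 its UMIs were spread over 53.4% of spots before thinning and 14.2% after it, against 2.18% and 0.323% at day 7.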
